A study of Rattus norvegicus with 12 samples.

Results

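A set of 10 genes of the exocrine pancreas was followed in rats after a thermal injury: the digestive enzyme genes Pnliprp1, Cpa1, Amy2a3, Ctrb1, Ctrc, Prss3b and Cela1, the secretory granule genes Cuzd1 and Sycn, and the transcription factor gene Bhlha15. They are 10 of the 10411 genes that the arrays measured, and each is read by 1 of the 15866 probe sets, the one whose platform annotation names that gene and no other. All 10 were measured, and no filter on low values was applied to them. The genes were chosen on their ratios of days 2, 4 and 7, the exocrine pancreas genes having stood out at day 4. Their ratios are therefore described here without a test of their own.

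Thermal injury was set against a sham procedure in rats, and RNA was measured on Affymetrix RAE230A arrays, 3 samples for each of days 1, 2, 4 and 7. In the labels every sample has thermal injury in channel 2 (Cy5) and sham control in channel 1 (Cy3), and the deposited value is 1 log2 ratio per probe set. Tissue, strain, age and the order of the ratio are not named, nor is it said that samples of 1 day are different animals. The p-values therefore set a mean only against the spread between samples, which may be technical. That spread is 1 per gene, shared between days 2, 4 and 7, so a p-value for 1 day does not reflect that day's spread alone. Injury over sham is taken as the likely order, because injury is the second channel, and every direction below depends on it. Day 1 is left out and 9 arrays remain, since its identifiers do not match: the rank correlation of probe set brightness was between 0.00 and 0.02 for day 1 with other days, and between 0.66 and 0.72 among days 2, 4 and 7. Each array was centred on its own median, which lay between -0.13 and 0.16 before centring. In tissue RNA, a different number of cells of a type and a different amount of RNA per cell cannot be told apart.

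The acinar cells of the pancreas make digestive enzymes, many of them as inactive zymogens, pack them into granules and release them into the gut. Trypsin, once formed in the gut, activates the other protease zymogens. Acinar cells share a set of transcription factors, among them PTF1, which binds a 2-part site made of an E-box and a TTTTCCC-like element, and Bhlha15 (also called MIST1), which maintains the secretory structure of the cell. These enzymes are textbook products of pancreas, while most other tissues make little of them.

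The sequences just before the start of 4 of the genes show what the promoters of these genes share and where they differ. Shown are the 250 bases before the start site that the RefSeq promoter table (GRCr8) uses for each gene, 5′ to 3′ on the gene's own strand, with capitals for the stretch that begins with CACCTG and, after 3 further bases, ends with TTTTCCC, and for TATAAA, both searched on both strands. Ctrb1 and Cela1 are shown because they hold that stretch, and Cpa1 and Amy2a3 because they had the largest mean ratios at day 4. The Ctrb1 window is chr19:56566979-56567228 (minus strand), that of Cela1 chr7:133665062-133665311 (minus strand), that of Cpa1 chr4:60224551-60224800 (plus strand) and that of Amy2a3 chr2:204014413-204014662 (minus strand). The start site used for Cela1 lies inside the gene's outermost RefSeq span, so 75 of its 250 bases overlap that span, while the windows of the other 3 genes end where the span begins. All distances below are from the start site of the window.
Ctrb1: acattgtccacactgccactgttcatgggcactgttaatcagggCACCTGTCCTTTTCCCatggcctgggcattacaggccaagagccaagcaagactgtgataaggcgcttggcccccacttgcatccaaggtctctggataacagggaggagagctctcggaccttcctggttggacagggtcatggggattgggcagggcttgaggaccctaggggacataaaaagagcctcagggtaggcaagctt
Cela1: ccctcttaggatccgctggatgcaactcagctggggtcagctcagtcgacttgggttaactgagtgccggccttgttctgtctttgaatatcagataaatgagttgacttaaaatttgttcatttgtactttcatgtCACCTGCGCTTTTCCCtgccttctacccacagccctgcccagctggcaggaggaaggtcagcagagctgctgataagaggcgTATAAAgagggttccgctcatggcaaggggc
Cpa1: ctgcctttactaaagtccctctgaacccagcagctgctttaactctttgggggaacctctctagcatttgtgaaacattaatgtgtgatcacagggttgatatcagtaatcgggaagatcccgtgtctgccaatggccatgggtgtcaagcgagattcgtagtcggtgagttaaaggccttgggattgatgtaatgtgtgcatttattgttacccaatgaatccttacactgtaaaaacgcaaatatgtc
Amy2a3: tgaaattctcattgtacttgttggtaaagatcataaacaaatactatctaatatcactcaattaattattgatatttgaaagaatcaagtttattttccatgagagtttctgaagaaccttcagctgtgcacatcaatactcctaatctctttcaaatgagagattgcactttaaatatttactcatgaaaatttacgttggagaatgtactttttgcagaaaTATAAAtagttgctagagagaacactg

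CACCTG, 3 bases of any kind and TTTTCCC in a row were found in 2 of the 33469 rat promoter windows of this length (0.00598%), and these were Ctrb1, 206 bases before the start, and Cela1, 113 bases before it. Its spacing was chosen after these 2 sequences had been read, so the rarity describes the letters and is no test. Its first part alone, CACCTG, lay in 15.9% of all windows and in 4 of the 9 windows held for these genes (Bhlha15, Cela1, Ctrb1 and Prss3b). The second part alone, TTTTCCC, lay in 6.81% of all windows and in 2 of the 9, again Cela1 and Ctrb1. TATAAA lay in 12.9% of all windows and in 4 of the 9 (Amy2a3, Cela1, Ctrc and Prss3b), beginning 27 bases before the start in Amy2a3 and 31 bases before it in Cela1. The general E-box CANNTG, which reads the same on both strands and includes CACCTG, was in 65.5% of all windows and in 8 of the 9. No window was held for Sycn. A match is a match of letters only. The 2 genes with the full stretch had log2 ratios of 4.31 (Ctrb1) and 0.23 (Cela1) in sample 2 of day 4, and 1.75 and 0.20 in sample 3, while both lay between -0.87 and -0.12 in all day 2 samples.

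By their median, the 10 genes stood highest at day 4, and samples 2 and 3 of that day carried most of the height. The median log2 ratio by array was 0.48, 2.44 and 1.30 in samples 1 to 3 of day 4. It lay at 0.30, -0.30 and -0.37 in the day 2 samples and at 0.43, -0.47 and -0.50 in the day 7 samples. Over all 10411 genes the array medians stayed between -0.03 and 0.03. The median of the 10 genes' day means was -0.20 at day 2, 1.80 at day 4 and -0.14 at day 7, with 4, 10 and 4 of the 10 means above 0. Without samples 2 and 3 of day 4, which leaves sample 1 alone, the day 4 value was 0.48.

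**Figure D1:**
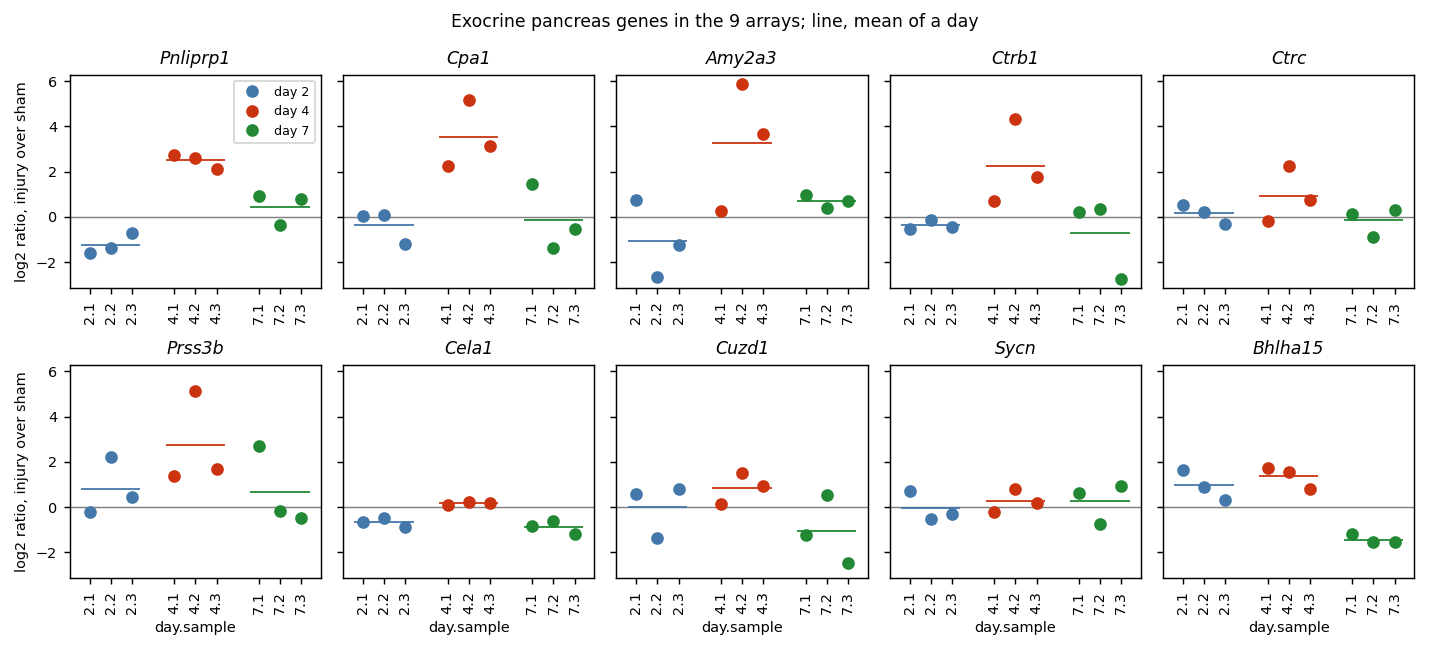
Log2 ratio of thermal injury over sham (y axis) for each of the 10 genes in the 9 arrays (x axis, day and sample number), 1 point per array, with a line at the mean of the 3 samples of a day. The day 4 points of Amy2a3, Cpa1, Prss3b and Ctrb1 reach 5.86, 5.18, 5.11 and 4.31 in sample 2, while those of Cela1 lie between 0.10 and 0.23.

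Amy2a3, which encodes pancreatic alpha-amylase that digests starch, had log2 ratios of 0.27, 5.86 and 3.65 in samples 1 to 3 of day 4. Its values were 0.76, -2.64 and -1.24 at day 2 and 0.98, 0.40 and 0.71 at day 7. Samples 2 and 3 of day 4 stood above all other arrays, while sample 1 of day 4 lay within the range of the other days. The day 4 mean was 3.26 ± 2.81 (SD, n = 3; 9.60-fold), so its SD was close in size to the mean. In sample 2 of day 4 this gene had the highest ratio of all 10411 genes, and in sample 3 it ranked 2. If the ratio runs the other way, these are ranks from the lowest. A second probe set, whose annotation names Amy2a3 together with the amylase gene Amy1 and which is therefore not counted among the 10, had -0.37, 0.11 and 0.46 in the same 3 samples. The 2 amylase probe sets thus differed in those samples, and which transcripts each one binds was not examined.

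Among the proteases, Cpa1, carboxypeptidase A1, which removes amino acids from the end of a peptide, had 2.23, 5.18 and 3.15 at day 4. At day 2 it had 0.04, 0.10 and -1.21, and at day 7 1.45, -1.35 and -0.52. All 3 day 4 values exceeded all 6 others. The day 4 mean was 3.52 ± 1.51 (SD, n = 3; 11.5-fold), the highest of the 10 genes.

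Prss3b, a trypsinogen gene, had 1.39, 5.11 and 1.67 at day 4, with a mean of 2.72 ± 2.07 (6.60-fold). It had -0.20, 2.21 and 0.44 at day 2 and 2.69, -0.15 and -0.47 at day 7. Single samples of days 2 and 7 reached above the lower day 4 values, so the days overlapped. Trypsin genes form a family of close copies, and cross-hybridization between them was not tested.

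Ctrb1, a chymotrypsinogen cleaving after large aromatic residues, had 0.69, 4.31 and 1.75 at day 4 (mean 2.25 ± 1.86, 4.75-fold). Its values were -0.51, -0.12 and -0.45 at day 2 and 0.24, 0.34 and -2.72 at day 7. Every day 4 value lay above the other 6, and sample 3 of day 7 stood far below the rest. Ctrc, chymotrypsin C, which regulates trypsinogen by cutting it, had smaller ratios of -0.20, 2.26 and 0.73 at day 4 (mean 0.93 ± 1.24). Its other 6 values lay between -0.88 and 0.55, and sample 1 of day 4 fell among them.

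Cela1, a pancreatic elastase, kept apart from the other proteases. Its values were -0.67, -0.48 and -0.87 at day 2, 0.10, 0.23 and 0.20 at day 4, and -0.85, -0.59 and -1.20 at day 7. The 3 samples of each day lay close together, with SDs of 0.20, 0.07 and 0.31, and the day 4 values did not overlap with the others. The day means corresponded to 0.627-fold at day 2, 1.13-fold at day 4 and 0.543-fold at day 7. In sample 2 of day 4, where Ctrb1 stood at 4.31, Cela1 stood at 0.23.

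Pnliprp1, a pancreatic lipase-related protein with little lipase activity of its own, was the most even at day 4 of the genes with large ratios. It had -1.57, -1.37 and -0.72 at day 2, 2.75, 2.62 and 2.12 at day 4, and 0.94, -0.35 and 0.79 at day 7. All day 2 samples were below 0 and all day 4 samples above 0, and day 4 exceeded every other array. The means were -1.22 ± 0.45 at day 2, 2.50 ± 0.33 at day 4 (5.65-fold) and 0.46 ± 0.71 at day 7 (SD, n = 3 each).

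The granule proteins had small or scattered ratios. Cuzd1, a membrane protein of the zymogen granule, had 0.57, -1.38 and 0.82 at day 2, 0.16, 1.5 and 0.92 at day 4, and -1.21, 0.53 and -2.47 at day 7. Sycn, syncollin, a protein of the granule's inner face that takes part in exocytosis, had 0.70, -0.54 and -0.30, then -0.21, 0.79 and 0.19, then 0.62, -0.75 and 0.92 on the same days. The days overlapped for both genes, and the Sycn day means of -0.04, 0.26 and 0.26 had SDs of 0.66, 0.50 and 0.89.

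Bhlha15 followed another course. The gene had 1.64, 0.90 and 0.33 at day 2, 1.72, 1.56 and 0.80 at day 4, and -1.19, -1.56 and -1.55 at day 7. All 6 samples of days 2 and 4 lay above 0 and all 3 of day 7 below, without overlap. The means were 0.96 ± 0.66 (1.94-fold), 1.36 ± 0.49 (2.56-fold) and -1.43 ± 0.21 (0.370-fold). In contrast to Amy2a3, Ctrb1 and Prss3b, its sample 1 value was the highest of day 4.

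Set beside all genes, 8 of the 10 genes were above 0 in all 3 samples of day 4, all but Ctrc and Sycn, against 18.3% of all genes. At day 2 it was 1 of 10 (Bhlha15), against 13.8%, and at day 7 1 of 10 (Amy2a3), against 15.6%. Below 0 in all 3 samples were 3 of 10 at day 2 (Pnliprp1, Ctrb1 and Cela1), against 13.1%, 0 of 10 at day 4, against 16.2%, and 2 of 10 at day 7 (Cela1 and Bhlha15), against 18% of all genes. A log2 ratio above 1 was seen for 4, 8 and 5 of the 10 genes in samples 1 to 3 of day 4, against 5.05%, 5.13% and 3.86% of all genes. It was seen for 1, 1 and 0 of the 10 in the day 2 samples, against 5.51%, 4.91% and 5.47%, and for 2, 0 and 0 in the day 7 samples, against 5.45%, 4.96% and 8.56%. All day 4 samples exceeded all samples of days 2 and 7 in 4 of the 10 (Pnliprp1, Cpa1, Ctrb1 and Cela1), against 3.42% of all genes, and all day 7 samples lay below all others in 1 of the 10 (Bhlha15), against 3.05%. All samples above 0 on one day and all below 0 on the other were found for 3 of the 10 between days 4 and 2 (4.46% of all genes), for 1 between days 7 and 2 (3.79%) and for 2 between days 7 and 4 (7.62%). These ratios were in view when the genes were chosen, so the counts describe the choice and nothing is read from them. In limma's fit across all genes, 0 of the 10 genes passed at day 4 (Benjamini-Hochberg adjusted p under 0.05), as did 0 of 10411 genes (0%), while 7 of the 10 had an unadjusted p under 0.05 against 10.6% of all genes. The fit shares 1 spread per gene between days. A day 4 p-value can thus be too small where day 4 spread most, as for Amy2a3 (SDs of 1.71, 2.81 and 0.29 on days 2, 4 and 7). It can be too large where day 4 spread least, as for Pnliprp1 (0.45, 0.33 and 0.71). At day 2 0 of the 10 passed against 0.144%, with 2 unadjusted against 8.46%, and at day 7 0 of the 10 against 0.0384%, with 2 unadjusted against 12.4%. For the mean of the 3 days 1 of the 10 passed, Cela1 (log2 -0.46, SE 0.08), against 0.336% of all genes in either direction and 0.163% in the lower one, with 4 unadjusted against 10.2%. That call ended in 12 of 18 alternative settings, among them the loss of any 1 sample other than sample 2 of day 7. For differences among the 3 days 0 of the 10 passed, against 0.00961% of all genes, with 6 unadjusted against 11.9%.

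Most deposited ratios, before centring, could be taken apart into 2 array signals, since they are the log2 quotient of a pair of whole numbers. Between 94% and 94.7% of the values of an array, and all 90 values of the 10 genes, gave such a pair with numbers up to 20000. For 83 of them the product of the pair was at most 9000000, a limit under which between 0.289% and 0.396% of randomly shifted values found a pair by chance. The other 7 are Cela1 values, for which the chance match rate was between 12% and 13.3%. The pairs are in lowest terms, so a signal can be a whole multiple of the number given, and 7 pairs with both numbers under 50 cannot be read as levels. Over the values within the product limit, between 69.3% and 72.3% of an array, the median injury signal was between 623 and 749 in the 9 arrays and the median sham signal between 563 and 739. Over all pairs up to 20000, which include brighter values and more chance matches, the medians were between 1060 and 1300 for injury and between 940 and 1320 for sham. The authors' scaling and detection calls were not at hand, and which signals were above background is not known.

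For Amy2a3, Prss3b, Ctrb1, Cpa1 and Pnliprp1, the injury signals of day 4 samples 2 and 3 exceeded all those of days 2 and 7. High ratios in sample 1 did not always come with such signals. Amy2a3 had injury signals of 121, 11313 and 4088 in samples 1 to 3, against sham signals of 102, 197 and 339. Prss3b had injury signals of 484, 9781 and 2610, against sham signals of 189, 287 and 853. Ctrb1 had injury signals of 1345, 7647 and 2613, against sham signals of 849, 392 and 812. Among the recovered numbers of these 3 genes, the injury signal of sample 2 was the highest of the 9 arrays and that of sample 3 the next. No sham number exceeded 1565, the value of Ctrb1 in sample 1 of day 2. Reduced pairs, such as 2 and 1 for Amy2a3 in sample 1 of day 7, hide the level. The order of the arrays is therefore not certain. Cpa1 had injury signals of 433, 4403 and 1135, against sham signals of 94, 123 and 133, and its sham signals on days 2 and 7 lay between 149 and 901. For Cpa1, therefore, the sham side was also lower at day 4 than in any array of the other days, as far as numbers in lowest terms show. The Cpa1 injury signal in sample 1 of day 4 lay below 945 in sample 1 of day 2 and 676 in sample 1 of day 7. Pnliprp1 had injury signals of 317, 2295 and 614, against sham signals of 48, 379 and 147. Its ratio was alike in the 3 samples although both numbers were several times lower in sample 1 than in sample 2, where numbers in lowest terms may mislead. Ctrc had 1497, 637 and 1749 against 1760, 135 and 1099, so its ratio in sample 2 stood on a low sham number that may be a reduced one. Bhlha15 had 171, 264 and 341 against 53, 91 and 204. Its injury signals in samples 1 and 3 of day 2 were higher, at 517 and 459. For Cela1 the recovered injury signals of day 4 were 12228, 14581 and 10042, against sham signals of 11651, 12618 and 9127, both high in every sample of that day. These Cela1 pairs are all above the product limit, so their levels are less certain.

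**Figure D2:**
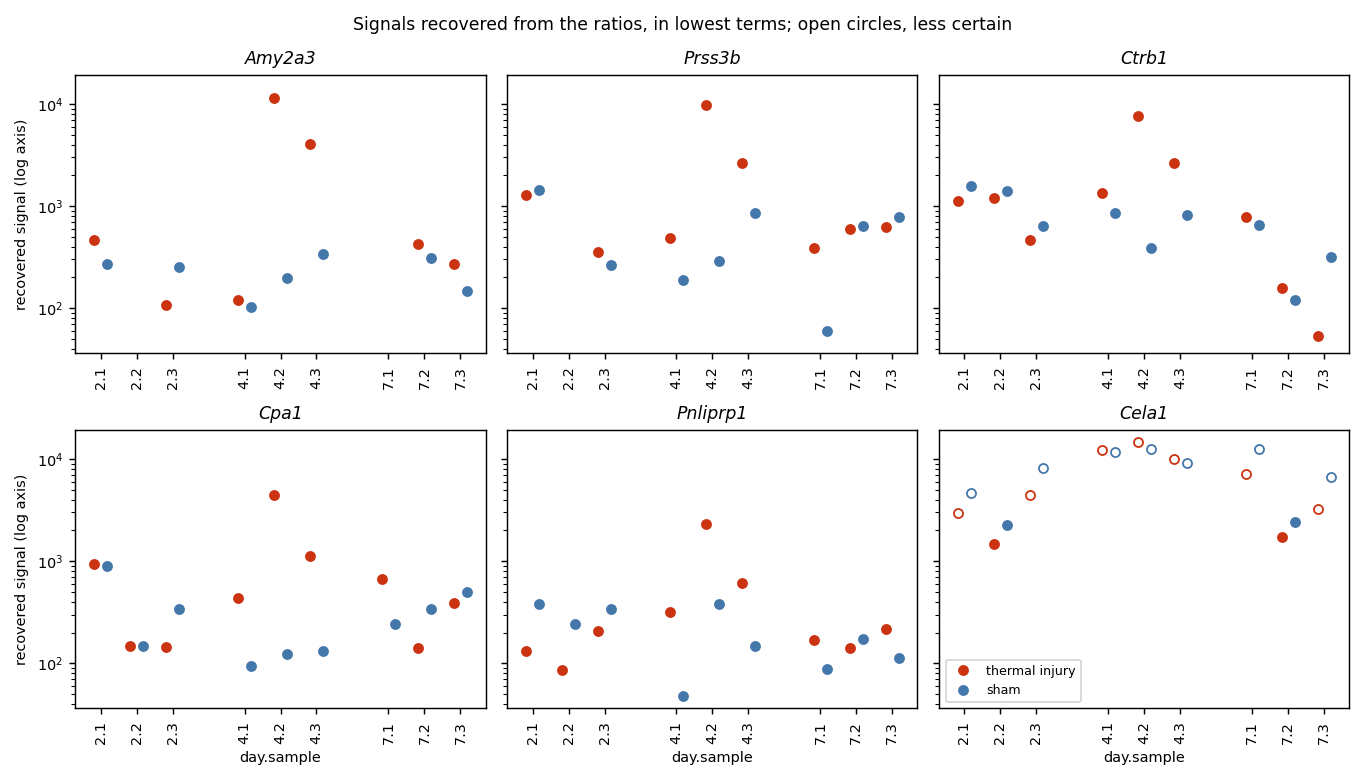
Recovered signals in lowest terms (y axis, log scale) of 6 genes in the 9 arrays (x axis, day and sample), thermal injury in red and sham in blue. Open circles are pairs above the product limit, and pairs with both numbers under 50 are not drawn. Among the numbers drawn, Amy2a3, Prss3b and Ctrb1 have their highest injury signals in samples 2 and 3 of day 4, with 11313, 9781 and 7647 in sample 2.

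Other enzymes and inhibitors of acinar cells were set beside these genes. Of 22 listed genes 14 were measured, and their median log2 ratio in samples 1 to 3 of day 4 was -0.15, 2.22 and 1.13. On days 2 and 7 their array medians lay between -0.07 and 0.41. At day 4, 12 of the 14 means were above 0 (median 1.19, against 0.01 for all genes). In limma's fit 0 of the 14 passed at day 4, as did 0 of all genes. An unadjusted p under 0.05 was found for 9 of the 14, against 10.6% of all genes. As the fit shares 1 spread per gene between days, such p-values can be too small for genes that spread more at day 4. Prss1 did so (SDs of 0.51, 1.9 and 0.42 on days 2, 4 and 7), while Pla2g1b spread most at day 2 (1.41, 0.65 and 0.29). Above 0 in all 3 day 4 samples were 4 of the 14 (Pnliprp2, Pla2g1b, Spink1 and Spink1l), against 18.3% of all genes. Of these, Spink1 and Spink1l were above 0 in all 9 arrays. Prss1, a trypsinogen, had -0.05, 3.76 and 1.81 at day 4. Cel, carboxyl ester lipase, had -0.72, 3.58 and 3.03. Cela2a, another elastase, had -0.25, 3.29 and 1.28, and Ctrl, chymotrypsin-like protease, had -0.98, 3.01 and 2.18. Those 4 genes were below 0 in sample 1 and above 1 in samples 2 and 3, as was Cpb1 (-0.45, 1.99 and 1.38). The 4 genes were named after their values were seen. Pla2g1b, the secreted pancreatic phospholipase A2, had 2.73, 1.79 and 3.04 at day 4 and so was high in all 3 samples, and it also reached 2.59 in sample 3 of day 2. Klk1, tissue kallikrein, had -0.82, -0.10 and -0.24, and Prss2, a trypsinogen, had 1.40, -0.73 and -0.35.

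**Figure D3:**
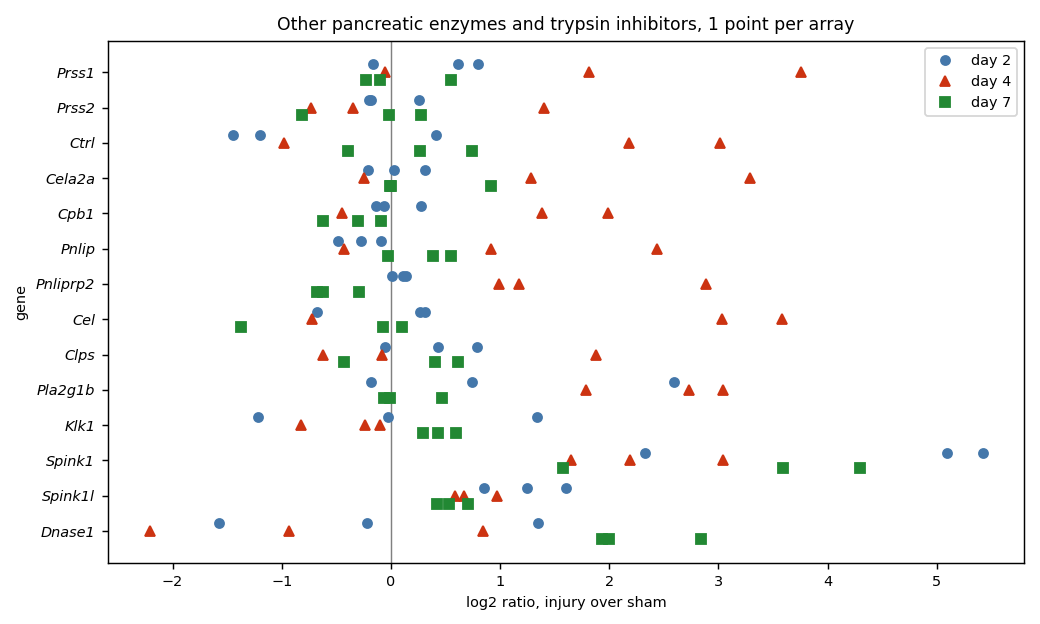
Log2 ratio of thermal injury over sham (x axis) of the 14 other pancreatic enzymes and inhibitors (y axis), 1 point per array, by day. Prss1, Ctrl, Cela2a, Cel and Cpb1 have 1 day 4 point below 0 and 2 above 1, while all 9 points of Spink1 and Spink1l lie above 0.

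The trypsin inhibitors Spink1 and Spink1l, which guard against early trypsin activity, were the 2 of these 14 genes that rose in limma's fit, where 0.115% of all genes rose at day 2 and 0.173% over the 3 days. Spink1 rose at day 2 (log2 4.28, SE 0.63, adjusted p = 0.0354) and over the 3 days (3.24, SE 0.37, adjusted p = 0.00688), above 0 in 9 of 9 samples. Spink1l rose at day 2 (1.23, SE 0.14, adjusted p = 0.00737) and over the 3 days (0.84, SE 0.08, adjusted p = 0.00196), also in 9 of 9 samples. Spink1 had 5.42, 5.09 and 2.33 at day 2, where the median of the 10 exocrine genes was 0.30, -0.30 and -0.37, and 1.65, 3.04 and 2.19 at day 4. The 3 probe sets of Spink1 disagreed, with -0.11, 4.29 and 4.93 in sample 2 of day 4. The Spink1 call at day 2 held in 7 of 18 alternative settings and the Spink1l call in 15 of 18, and over the 3 days they held in 16 and 18 of 18, with adjusted p up to 0.0935 for Spink1 and 0.0456 for Spink1l. For day 2, adjusted p went up to 0.318 for Spink1 and 0.128 for Spink1l, and both day 2 calls ended without sample 1 or without sample 2 of that day. The Spink1 call at day 2 also ended without sample 2 or 3 of day 4 or sample 2 of day 7.

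By their median, the listed acinar genes other than digestive enzymes showed no such height. How particular each listed gene is to acinar cells was not examined, so this median does not speak for acinar cells alone. Of the 19 measured granule, secretory and regulatory genes, the array medians lay between -0.22 and 0.31, and in samples 1 to 3 of day 4 they were 0.02, 0.31 and -0.22. A log2 ratio above 1 was seen for 0, 4 and 0 of the 19 in those samples, against 5.05%, 5.13% and 3.86% of all genes. In limma's fit 0 of the 19 passed on any day or over the days. At day 4, 4 of the 19 had an unadjusted p under 0.05, against 10.6% of all genes. Reg1a, a secreted acinar protein linked to regeneration, had 0.02, 1.83 and -0.53 at day 4, and Zg16, a zymogen granule protein, had -0.18, 1.66 and -0.60. Both were high in sample 2 and below 0 in sample 3. Gp2, the main membrane glycoprotein of the zymogen granule, had -0.54, 0.76 and -0.52. Among the transcription factors, Nr5a2, also active in liver, had -0.12 as its day 4 mean, and Ptf1a, a part of PTF1, had -0.46, 0.30 and -0.60. Pdia2, a disulfide isomerase of pancreas, had 0.48, 1.86 and -2.37, and Serpini2, a pancreatic serpin, -0.04, -0.39 and 0.84. Rap1gap, an inactivator of the small GTPase Rap1, had the lowest mean of this list over the 9 arrays, at -0.33. Reg1a, Zg16 and Gp2 were named after their values were seen.

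Genes of protein folding in the endoplasmic reticulum, which every secretory cell needs, had array medians between -0.19 and 0.17. In limma's fit 0 of 22 passed, with 3 at an unadjusted p under 0.05 at day 4, against 10.6% of all genes. Xbp1, a transcription factor of the unfolded protein response, had -0.59, -0.99 and -0.27 at day 4. Trib3, a stress-induced pseudokinase, had a day 4 mean of -0.71. Sdf2l1, an endoplasmic reticulum protein induced by stress, had 0.12, 0.00 and 0.02. Ero1b, a folding oxidase prominent in pancreas, had a day 4 mean of 0.04, and Ddit3, a stress-induced transcription factor, 0.13.

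Markers of other cells that a sample could hold were set beside these values. Islet markers, 17 of 21 measured, had medians of -0.05, 0.20 and -0.03 in samples 1 to 3 of day 4 and between -0.42 and 0.41 over the 9 arrays. The hormone genes Ins1 (insulin) and Gcg (glucagon) had -0.52, 0.96 and 0.06, and -0.92, 0.86 and -0.33, at day 4. Iapp, another islet marker, had 0.34, -0.98 and 0.10. In sample 2 Ins1 and Gcg were at their highest of the day, and Iapp and Sst at their lowest. Ins2 had -1.87, 0.00 and 0.32, Sst (somatostatin) 1.39, -0.21 and 0.15, and Ppy (pancreatic polypeptide) -1.02, 0.39 and 1.00. The islet transcription factors Neurod1 and Isl1 had day 4 means of 1.54 and 0.57, and the granule protein gene Scg2 had -1.15. Duct markers, 9 of 12 measured, had day 4 array medians of -0.24, -0.05 and -0.14, with Krt8 at a day 4 mean of 0.22, Krt18 at 0.25, Epcam at -0.06, Krt19 at -1.28 and Krt7 at -0.87. Intestine and stomach markers (13 of 16 measured), spleen and lymphoid markers (9 of 12), adipocyte markers (7 of 10) and hepatocyte markers (13 of 14) had array medians between -0.43 and 0.39, -0.34 and 0.38, -0.53 and 0.50, and -0.20 and 0.23. Among the genes with the highest mean of their list over the 9 arrays, the intestinal mucin gene Muc2 had 1.38, 2.48 and 0.34 at day 4, and the gastric proton pump gene Atp4a 2.89, -0.62 and -0.01. Si, the sucrase-isomaltase of the gut, had a day 4 mean of -0.81 but 4.75, -0.72 and 3.08 at day 7 (mean 2.37 ± 2.81, 5.17-fold). Tff3 and Alpi, at the low end, had day 4 means of -0.05 and -1.0. Day 4 means of the lymphoid genes Cd3d, Cd79b, Ptprc, Cd3e and Cd2 were -0.38, 0.97, -0.15, -1.21 and 0.01. Those of the fat cell genes Lep, Pparg, Lipe, Car3 and Fabp4 were 0.12, 0.12, -0.02, -0.19 and -0.56, and those of the liver genes Fga, Tat, Rbp4, Hpd and Cyp2e1 were 0.03, -0.24, 0.16, 0.03 and 0.09. In limma's fit 0 genes of any of these 6 lists passed, but at day 4 0 of all 10411 genes passed. Each list had at most 1 gene at an unadjusted p under 0.05 at day 4, against 10.6% of all genes. The array medians of all 6 stayed within 0.53 of 0, while the median of the 10 genes reached 2.44. The 10 genes were chosen for standing out in these ratios, so nothing is read from that contrast. Whether pancreas was carried over into some samples was not tested, and the labels do not name the tissue.

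**Figure D4:**
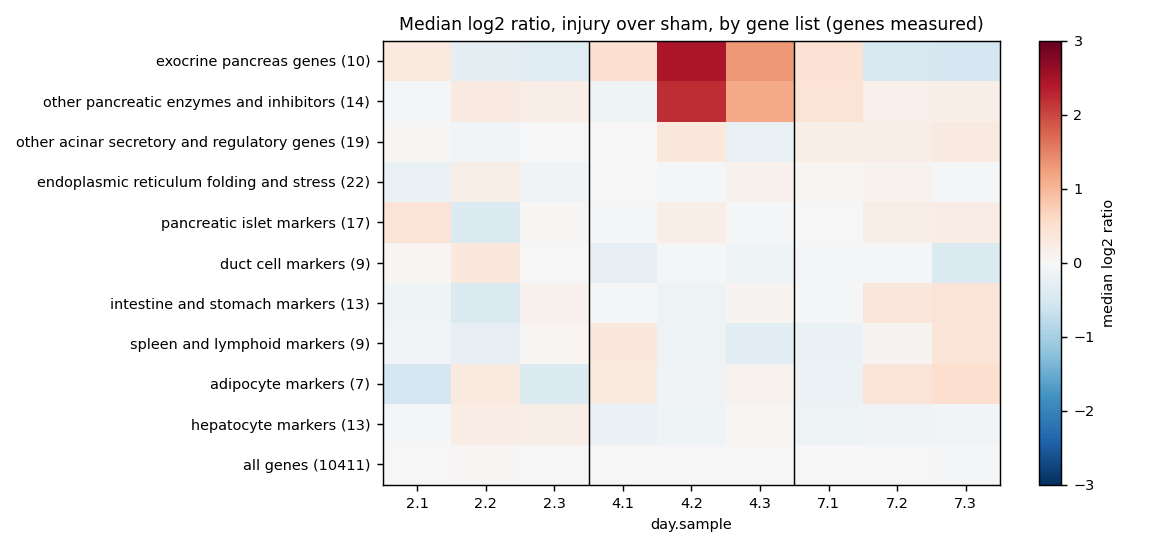
Median log2 ratio of thermal injury over sham (colour) of each gene list (rows, number of genes measured in parentheses) in the 9 arrays (columns, day and sample). The 10 exocrine pancreas genes and the 14 other enzymes and inhibitors reach 2.44 and 2.22 in sample 2 of day 4, while the other lists stay between -0.53 and 0.50. The 10 genes were chosen on these ratios.

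The genes whose ratios over the 9 arrays lay nearest the median of the 10 genes were found by root mean square difference on the log2 scale. They were Porcn, a Wnt-acylating enzyme (0.418), the pancreatic enzymes Cpb1 (0.472), Pnlip (0.489) and Pnliprp2 (0.505), and Cpe, the carboxypeptidase of prohormone processing (0.527). Cpb1, carboxypeptidase B1, had -0.45, 1.99 and 1.38 at day 4. Pnlip, pancreatic lipase, had -0.43, 2.44 and 0.92, and Pnliprp2, a lipase of the same family, had 1.17, 2.89 and 0.99. Porcn had 0.49, 1.87 and 1.08 and Cpe -0.18, 2.53 and 0.75. All 5 were highest of the day in sample 2, as was the median by which they were found. Nothing is therefore read from that shared height. The measure is a description over 9 arrays that share the same 3 days, and 3 of the 5 (Porcn, Cpb1 and Pnlip) were also among the nearest 5 by mean absolute difference.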

How the data were processed

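The deposited values are log2 ratios, 1 per probe set and sample, that the authors made from 2 array signals. Per the labels, injury is channel 2 and sham channel 1, on Affymetrix RAE230A arrays. Scaling, software and probe summary are not known here. Of 15923 probe sets, 57 controls were left out. The platform annotation gave 12783 probe sets 1 symbol, 312 several and 2771 none, and probe sets of 1 gene were averaged. For arrays, their number limits the precision.

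The fit used limma 3.58.1 in R 4.3.3 on the 9 arrays of days 2, 4 and 7: a mean per day, 6 residual degrees of freedom, and a variance prior following brightness, the median over arrays of the log2 of the smaller recovered signal (numbers up to 20000, continued fractions, tolerance 1e-09). P-values were Benjamini-Hochberg adjusted over 10411 genes, with 0.05 as threshold. The limit for brightness was raised to 20000 after results with 3000 had been seen, because bright probe sets were seldom recovered under 3000, and this choice changes the number of calls. The fit was also run on simulated data in which each gene had the same spread on all days. That run does not cover genes whose spread differs between days. Lists were described by counts and medians. Genes named from other lists are the 3 with the highest and the 2 with the lowest mean over the 9 arrays, those that passed, hormone and enzyme genes, and the 5 nearest genes. The genes and lists were chosen with earlier results of these data known. Promoters are from RefSeq (GRCr8), and 9 of 10 genes matched by symbol. Alternatives covered the variance prior, arrays, centring, quantile normalization, probe sets, dim probe sets, array weights, brightness, replicate block and left-out samples.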

Additional observations from a re-analysis of the deposited data

Results flagged for a closer look

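In 6 comparisons of 2 days among the 10 genes, every sample of one day lay above 0 and every sample of the other below it. The difference between those 2 days was not tested by itself. In limma's test of differences among all 3 days, 0 of the 10 genes passed. Pnliprp1 was at 2.50 on day 4 and -1.22 on day 2, a difference in mean log2 ratio of 3.72. Ctrb1 differed by 2.61 between day 4 and day 2, with means of 2.25 and -0.36. Cela1 differed by 0.85 between day 4 and day 2 (0.17 and -0.67) and by -1.05 between day 7 and day 4 (-0.88 and 0.17). For Bhlha15 the difference was -2.39 between day 7 and day 2 (-1.43 and 0.96) and -2.79 between day 7 and day 4 (-1.43 and 1.36). The same separation was seen in 4.46% of all genes for days 4 and 2, in 3.79% for days 7 and 2, and in 7.62% for days 7 and 4.

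The same separation was seen in 4 of the genes named as the 3 highest or 2 lowest of the other lists. Their pairs of days were not tested by themselves, and in limma's test among the 3 days 0 of the 4 passed, with adjusted p between 0.136 and 0.742. Klk1 differed by 0.82 between day 7 and day 4 (0.44 and -0.38). The lymphoid marker Cd3e differed by 1.69 between day 7 and day 4 (0.48 and -1.21). The liver enzyme genes Tat and Hpd differed by -1.37 between day 7 and day 2 (-0.39 and 0.97) and by -0.29 between day 7 and day 4 (-0.26 and 0.03).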

How the results depend on the processing

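The median of the 10 genes at day 4 was 1.80, between 1.24 and 2.07 without 1 sample, and 0.48 without samples 2 and 3 of that day, a setting chosen after seeing the data. It was between -0.35 and -0.06 at day 2 and between -0.60 and 0.35 at day 7 without 1 sample. It moved by less than the SD between arrays without centring and under quantile normalization. Leaving out the dimmest 25% of probe sets kept 4 of the 10 genes. It dropped Cpa1, Amy2a3, Prss3b and Pnliprp1, which had the largest day 4 means of the 10, and also Cuzd1 and Bhlha15. Much of the day 4 height thus lay on probe sets that were dim by this measure. It is the median over arrays of the smaller recovered signal, so it does not show the injury signals of day 4. For Amy2a3 those were 121, 11313 and 4088 in samples 1 to 3.

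The number of genes called at day 2 was 15. It was 0 without the variance trend, 8 with 12 arrays, 9 with the brightest probe set, 5 with array weights, 4 with the replicate block, 4 with brightness from numbers up to 3000, 4 without day 4 samples 2 and 3, and 0 to 11 without 1 sample. At day 4 it was 0, but 6 with array weights, 1 without both samples and 0 to 6 without 1 sample. At day 7 it was 4, but 0 without the trend, 0 with 12 arrays, 8 without centring, 1 with the replicate block, 1 without both samples and 1 to 12 without 1 sample. Over the 3 days it was 35, but 4, 14, 22, 10 and 4 without the trend, with 12 arrays, with the replicate block, with the other brightness and without both samples, and 10 to 38 without 1 sample. For differences among days it was 1, but 2 without the dimmest 25% and 0 to 6 without 1 sample, and 0 without the trend, with 12 arrays, without centring, with the brightest probe set, with the replicate block, with the other brightness and without both samples. Of the 10 genes 1 was called, and 0 were called without the trend, with 12 arrays, under quantile normalization, with the other brightness or without both samples, and 0 to 1 without 1 sample. Among other enzymes and inhibitors 2 were called, and 1 without the trend or without both samples. Among hepatocyte markers 1 in place of 0 was called without the dimmest 25%. The fit with 12 arrays takes its spread partly from day 1 values whose rows do not match, so its counts say nothing about stability, and it is not among the 18 settings counted for single genes. The cause of the other changes was not tested.

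The sample numbers recur on each day, but same-numbered samples did not deviate together (correlations across genes between -0.04 and 0.07 for 9 pairs, and between -0.12 and 0.11 for 18 pairs with different numbers). The block therefore stands for a number only.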
